A study of Homo sapiens with 4 samples.

Results

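The ATP binding cassette (ABC) transporter genes were examined in HCT116 cells, a colorectal carcinoma derived cell line, on 4 single color arrays. Members were the non-control probes whose gene name on the array begins with ABCA to ABCG and a number. Of 50 such names, 5 pseudogenes (ABCA11, ABCA17P, ABCC6P1, ABCC6P2 and ABCC13) were left out. This gave 45 genes with 68 probes, out of 19614 genes with a RefSeq symbol and 50238 non-control probes. For a gene with several probes, the brightest one led. The groups were the vector control clone (vec, n = 2 arrays) and a clone carrying a plasmid encoded shRNA against plakophilin 3 (shpkp3-2, n = 2 arrays), and every difference is shpkp3-2 minus vec. The labels call the arrays of a clone biological replicates. RNA of vec 1 and shpkp3-2 1 was collected at one time, and RNA of vec 2 and shpkp3-2 2 at another. Both clones were kept under drug selection, which the labels give as 5 μg/ml puromycin and the methods of the study as blasticidin. Each condition is 1 stable clone, so the values compare a pair of clones, and knockdown cannot be told apart from other differences between them.

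ABC proteins use ATP bound at a conserved cassette to move substrates across membranes. P-glycoprotein (ABCB1), the breast cancer resistance protein (ABCG2) and several members of subfamily C export drugs, puromycin being a known substrate of P-glycoprotein. Members of subfamily A and part of subfamily G carry lipids and sterols, those of subfamily D serve mainly peroxisomes, and ABCE1 and the ABCF proteins lack membrane domains and act in translation. In the intestinal epithelium, ABCB1, ABCC2 and ABCG2 sit at the apical membrane.

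PKP3 itself, the gene for plakophilin 3, had processed signals of 20850 and 22840 in vec, against 3414 and 3078 in shpkp3-2. Its log2 difference was -2.54 (adjusted p = 0.0188 by limma), in the direction of the labels. Of the markers of colorectal epithelium, 7 of 8 were well above background on all 4 arrays, the exception being VIL1. Of the markers of other cells, 3 of 4 for blood, 1 of 3 for endothelium and 1 of 4 for fibroblasts were well above background on all 4 arrays, while PTPRC, PECAM1, CDH5, COL1A2, DCN and LUM were on none. The summed signal of the blood markers was 250 and 163 in vec against 193 and 239 in shpkp3-2, that of the endothelial markers 111 and 61.9 against 72.9 and 92.9, and that of the fibroblast markers 191 and 110 against 114 and 138. Their part in the results was not tested. The 4 arrays lay on 1 slide and had 60.5% to 63.5% of spots well above background, and the position on the slide cannot be told apart from the clone.

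The array reads each gene through probes of 60 bases. The first 30 bases of the probes on which the results turn are shown in lower case, 5′ to 3′, as the files give them, so that the probes of one gene can be compared, with the leading probe as probe 1. The 3 probes of ABCA1, a gene for which only the first was above background, were:

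ABCA1 probe 1: ccaaagagccatgtgtcatgtaatactgaa

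ABCA1 probe 2: gtgcttctgtaccaaaagtggaatttcacg

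ABCA1 probe 3: caaaattccattacaggggcagtgcctttg

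The 4 probes of ABCB10 gave differences of one sign, and the detected probes of ABCC4 gave opposite signs:

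ABCB10 probe 1: catggatgaggctagaccctaagaagtaat

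ABCB10 probe 2: agaacggtgttagttattgcccatcgtctg

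ABCB10 probe 3: agtttggaagtccttgctattcaacagaat

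ABCB10 probe 4: ctggatgctgaaaatgagtaccttgttcaa

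ABCC4 probe 1: cgagaagctagatcttaactggtacttagg

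ABCC4 probe 2: cagcgacaagataatggttttagattcagg

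The drug efflux pumps whose leading probes lay farthest from 0, ABCG2 and ABCC3, had 1 probe each:

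ABCG2: ctggggcttgtggaagaatcacgtggcctt

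ABCC3: gtaactgtgctgaatgctttagatgaggaa

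Across the family, 34 pairs of probes belonged to one gene, and no pair shared a run of more than 8 bases. These probes therefore read different stretches of their genes. No probe of a member shared 20 or more bases with a probe of a left-out pseudogene. Only probes were compared, so whether a member's probe also reads the transcript of a pseudogene was not tested.

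The family was detected in HCT116 cells about as often as other genes. The leading probe was well above background, by the scanner software's own flag, on all 4 arrays for 32 of 45 genes (71.1%), against 71.7% of all genes with a RefSeq symbol. On no array was it above background for 11 genes, against 21.5% of all genes. These were ABCA8, ABCA9 and ABCA13 of subfamily A, ABCB4, the phosphatidylcholine transporter of bile, ABCB11, the bile salt export pump, ABCB5, ABCC9, a subunit of potassium channels, ABCC11, ABCC12, ABCD2 and ABCG8, a partner of ABCG5 in sterol export. ABCA1 was above background on the vec arrays only, and ABCA12 on 3 arrays. All 4 translation factors and 8 of 9 drug efflux pumps were detected on all 4 arrays, against 10 of 18 lipid, sterol and bile salt transporters. ABCB5, a plasma membrane transporter that has also been linked to drug efflux, was grouped with the other subfamily B genes and is not among the 9 pumps. A gene that is not above background has only an upper limit, so these genes are not shown to be silent.

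**Figure D1:**
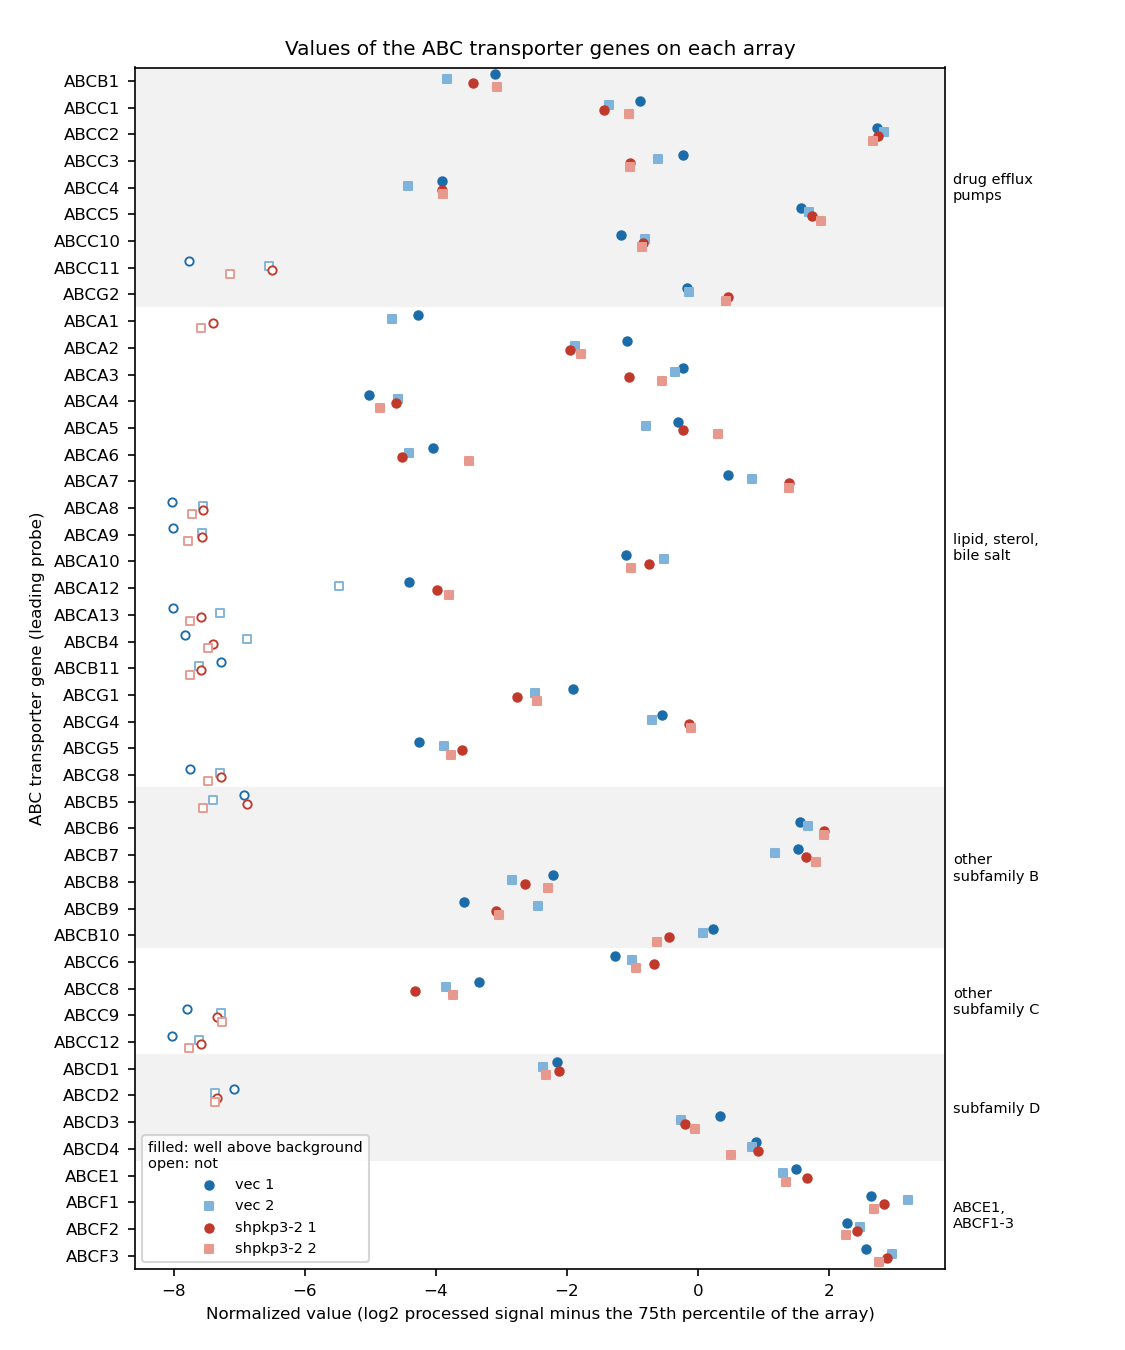
Normalized values (log2 processed signal minus the 75th percentile of the array) of the leading probe of each of the 45 ABC transporter genes, by role, with 1 symbol per array. Filled symbols are well above background and open ones are not. Values of different genes come from different probes and are not to be set against each other. ABCA1 is filled on both vec arrays and open on both shpkp3-2 arrays.

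To ask which members differed between the clones, the 34 genes whose leading probe was detected in both replicates of either clone were compared by limma within a fit of 30512 probes. ABCA1 alone was called, as lower in shpkp3-2, where 0.144% of all tested probes were called lower. It entered the fit through vec, where it was high, and its shpkp3-2 values were not well above background, so only a bound can be given for it. No member was called higher, where 0.246% of all tested probes were. At an unadjusted p under 0.05 by limma, 4 members were higher, against 7.35% of all tested probes, and 3 were lower, against 4.98%. The 4 include ABCA12, which entered the fit through shpkp3-2, where it was high, with vec 2 not well above background. The 3 include ABCA1, without which 2 were lower. In all, 19 members lay above 0 (55.9%, against 56.9% of all tested probes) and 15 below, with a median log2 difference of 0.06, beside 0.05 over all tested probes. The median was also 0.06 with undetected values raised to the lowest signal that counts as well above background. A change of at least 2-fold on each shpkp3-2 array against the vec mean was met by 0 members in the higher direction (1.12% of all tested probes). In the lower direction (0.623%) ABCA1 met it, on shpkp3-2 values that were not well above background, and its bound is under 2-fold. At 1.5-fold, ABCA7, ABCA12 and ABCG2 were higher (4.23% of all tested probes), and ABCA1, ABCB10 and ABCC3 were lower (2.65%). The arrays of the clones did not overlap for 10 members that were higher and 4 that were lower in shpkp3-2, against 27.2% and 18% of all tested probes. ABCA12 is among the 10 and ABCA1 among the 4. As in the 1.5-fold lists, both stand there on values that include ones not well above background. An exact permutation test of 1 gene with 2 arrays against 2 cannot go below p = 0.333, so single genes rest on the fit across all probes.

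**Figure D2:**
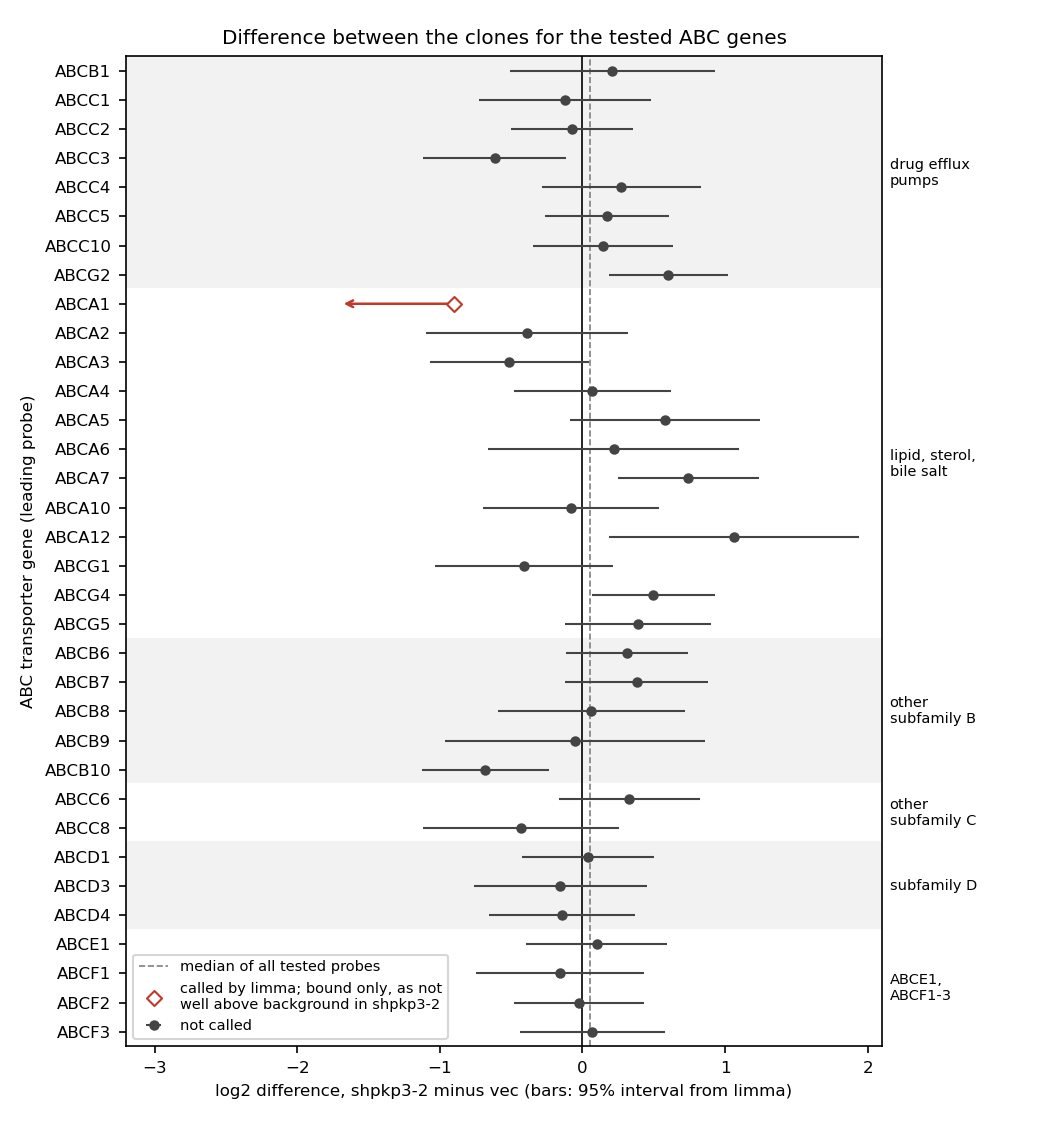
Log2 difference (shpkp3-2 minus vec) of the leading probe for the 34 tested ABC transporter genes, by role, with 95% intervals from limma as bars. The solid line marks 0 and the dashed line the median of all tested probes, 0.05. The open diamond and arrow give ABCA1 at -0.90, its bound against the lowest detected signal of each shpkp3-2 array, while the other 33 genes lie between -0.68 and 1.06, ABCA12 at 1.06 with vec 2 not well above background.

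Among the drug efflux pumps, none was called by limma. At an unadjusted p under 0.05, 1 of 8 tested pumps was higher (7.35% of all tested probes) and 1 lower (4.98%). ABCG2 had processed signals of 444 and 346 in vec against 520 and 506 in shpkp3-2. Both shpkp3-2 arrays were above both vec arrays. The log2 difference was 0.60 ± 0.17 (SE, adjusted p = 0.273 by limma), or 1.52-fold, and it was 0.63 in the first RNA collection and 0.57 in the second. ABCC3, an exporter of conjugated bile salts and drugs, had signals of 426 and 249 in vec against 185 and 182 in shpkp3-2. Here the clones separated the other way, with a log2 difference of -0.62 ± 0.20 (SE, adjusted p = 0.327 by limma) and values of -0.81 and -0.42 in the 2 collections.

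For ABCB1, the P-glycoprotein gene, signals were 58.4 and 26.8 in vec against 34.9 and 44.5 in shpkp3-2, and the clones overlapped. Its log2 difference of 0.21 had a 95% interval of -0.51 to 0.93, and turned to -0.16 without vec 2. The first collection gave -0.34 and the second 0.76, so the sign differed between collections. ABCC1 (MRP1), an exporter of glutathione conjugates, overlapped too, with signals of 270 and 149 in vec against 140 and 180 in shpkp3-2. Its log2 difference was -0.12 with an interval of -0.73 to 0.48, and it was 0.11 without vec 1 and 0.07 without shpkp3-2 1.

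ABCC2 (MRP2), an apical exporter of conjugates, had the signals 3303 and 2712 in vec against 2536 and 2384 in shpkp3-2. Its log2 difference was -0.07, with a 95% interval of -0.50 to 0.35, so a change of 2-fold lies outside the interval in either direction. Its second probe gave -0.29 (interval -0.77 to 0.19), with both shpkp3-2 arrays below both vec arrays after scaling. ABCC5, an exporter of nucleotide analogs, gave 1482 and 1232 in vec against 1270 and 1367 in shpkp3-2. The log2 difference was 0.18, with an interval of -0.26 to 0.61 that likewise leaves out a change of 2-fold. All 4 probes of ABCC5 were tested, and they lay between 0.02 and 0.23. With arrays left out in turn, the leading probe ranged from 0.11 to 0.24.

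ABCC10, another exporter of subfamily C, read 221 and 217 in vec against 211 and 206 in shpkp3-2 before scaling. After scaling, the log2 difference was 0.14 (interval -0.35 to 0.63), and -0.04 without vec 1. The leading probe of ABCC4 (MRP4), an exporter of cyclic nucleotides, read 33.2 and 17.7 in vec against 25.2 and 25.4 in shpkp3-2, a log2 difference of 0.27 (interval -0.29 to 0.83), which was 0.53 without vec 1 and 0.011 without vec 2. Its second probe read 27.1 and 29.1 in vec against 13.3 and 18.4 in shpkp3-2, a log2 difference of -0.63 (interval -1.27 to 0.01). The probes thus placed shpkp3-2 on opposite sides of vec, and ABCC4 has no settled direction here. ABCC11 was not above background, at 2.28 to 4.19 over the 4 arrays.

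Of the lipid, sterol and bile salt transporters, ABCA1 exports cholesterol and phospholipid to apolipoprotein A-I. Its leading probe had signals of 25.8 and 14.9 in vec against 2.25 and 1.95 in shpkp3-2. Both vec arrays were well above background and neither shpkp3-2 array was, so the shpkp3-2 values carry no measured level. Against the lowest signal that counts as well above background on each shpkp3-2 array, ABCA1 was at least 1.87-fold lower. The adjusted p of 0.00802 by limma comes from the undetected shpkp3-2 values as they stand and is no test of that bound. On the log2 scale that bound was -1.01 in the first collection and -0.80 in the second. It takes the lowest detected signal as the limit by convention, since the flag is set spot by spot and an undetected probe can read higher, as PECAM1 did at 12.8 and 11.7 in shpkp3-2.

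The call on ABCA1 depended on the background correction and on the probes tested. With normexp background correction in place of the scanner software's processed signal, the log2 difference was -0.26 (adjusted p = 0.536 by limma). With no filter on detection, the fitted difference was the same and the adjusted p over 50117 probes was 0.0786. Where all 4 arrays had to be well above background, ABCA1 was not tested. The other 2 probes of ABCA1 were well above background on no array, with signals of 1.75 to 8.15. The call therefore rests on 1 dim probe.

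ABCA12, a lipid transporter of the epidermis, had signals of 23.4 and 8.54 in vec against 24.1 and 27.0 in shpkp3-2. The vec 2 array, which was not well above background, was the low one, and the probe entered the fit through shpkp3-2, where it was high. The log2 difference was 1.06 ± 0.36 (SE, adjusted p = 0.332 by limma), and 0.97 with vec 2 raised to the lowest signal that counts as well above background. It was called when collections were blocked in the limma fit (adjusted p = 0.0434) and without vec 1 (adjusted p = 0.0408). Both calls rest on the undetected vec 2 value. Without vec 1, the vec clone is the undetected vec 2 value alone, assumed to vary like the other arrays, so that there is no measured difference. The difference was 0.44 in the first collection, and 1.51 in the second with vec 2 raised in the same way. With normexp the log2 difference was 0.36 (adjusted p = 0.379 by limma), and without vec 2 it was 0.53 (adjusted p = 0.214).

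ABCA7, a phospholipid transporter related to ABCA1, read 686 and 677 in vec against 992 and 979 in shpkp3-2, with no overlap. Its log2 difference was 0.74 ± 0.20 (SE, adjusted p = 0.255 by limma), and 0.93 and 0.56 in the collections. ABCA5, found in lysosomes and late endosomes, gave 405 and 220 in vec against 322 and 461 in shpkp3-2, a log2 difference of 0.58 that came mostly from the second collection (0.07 against 1.09). ABCG4, a sterol transporter, gave 342 and 234 in vec against 343 and 346 in shpkp3-2, a log2 difference of 0.50 (adjusted p = 0.356 by limma). In the other direction, ABCA3, which serves surfactant lipids in the lung, gave 424 and 300 in vec against 182 and 256 in shpkp3-2, a log2 difference of -0.51 (adjusted p = 0.441 by limma). It was -0.82 and -0.20 in the collections, and -0.26 without shpkp3-2 1. None of these passed the adjusted threshold. Over the 12 tested genes of this role, 7 lay above 0 and 5 below, with a median of 0.14.

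Among the subfamily B transporters of mitochondria and lysosomes, ABCB10, a mitochondrial transporter that serves heme synthesis, stood lowest. Its leading probe read 581 and 402 in vec against 279 and 243 in shpkp3-2. The clones did not overlap on any of its 4 probes, whose log2 differences lay between -0.68 and -0.44. The leading probe gave -0.68 ± 0.18 (SE, adjusted p = 0.253 by limma), with -0.66 in the first collection and -0.70 in the second. The probes share their RNA and are not replicates, and ABCB10 was not called. The other 4 tested genes of this role lay between -0.05 and 0.38.

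Of the remaining subfamily C genes, ABCC8, the sulfonylurea receptor, read 49.2 and 26.4 in vec against 19.1 and 28.0 in shpkp3-2, a log2 difference of -0.43 (adjusted p = 0.577 by limma) with overlapping clones. That value was -0.14 without shpkp3-2 1, -0.17 without vec 1 and -0.03 with normexp, and the collections gave -0.97 and 0.11. ABCC6 had log2 differences above 0 on all 3 of its probes, at 0.33 to 0.51, with an adjusted p of 0.56 for the leading probe by limma. Whether these probes also read the ABCC6 pseudogenes was not tested. The 3 tested genes of subfamily D, which carry fatty acids and a cobalamin into or out of organelles, lay between -0.15 and 0.04. ABCE1, which recycles ribosomes, and ABCF1 to ABCF3 lay between -0.16 and 0.10. For these 7 genes of subfamilies D, E and F the arrays of the clones overlapped, where 27.2% of all tested probes were apart in the higher and 18% in the lower direction.

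The signs of the differences were compared between probes of one gene and between RNA collections. Of 14 genes with more than 1 probe, 12 had at least 2 tested probes. Their differences had one sign in 9 genes and both signs in 3 (ABCA10, ABCB9 and ABCC4). Between RNA collections, 16 of the 34 tested genes had one sign in both collections and 18 had opposite signs. Neither the probe count nor the collection count was set beside its share over the whole array. They cannot be read as traits of the family.

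**Figure D3:**
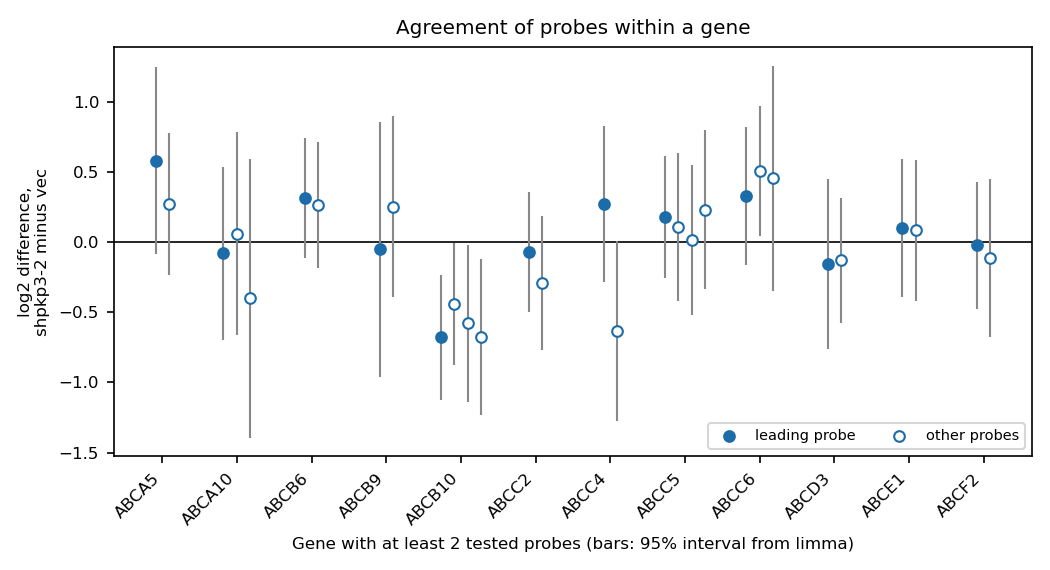
Log2 difference (shpkp3-2 minus vec) of each tested probe for the 12 ABC transporter genes with at least 2 tested probes, with 95% intervals from limma as bars. Filled points are leading probes. The 4 probes of ABCB10 all lie below 0, and the 2 of ABCC4 lie on opposite sides of it.

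Genes that work beside the family were read from lists of known partners. Limma called none of the genes in 6 lists, and none met the 2-fold rule. For transcription factors known to control ABC genes, 14 of 17 were tested, with 0 at an unadjusted p under 0.05 by limma and a median log2 difference of -0.01. At that level 7.35% of all tested probes were higher and 4.98% lower. For drug metabolism and glutathione, 21 of 26 were tested, of which 3 were higher (MVP, GSR and MGST2) and 1 lower (GCLM) at that level, with a median of 0.11. Of the drug uptake carriers, 13 of 22 were tested, with 0 higher and 1 lower. This was SLCO2A1, a prostaglandin carrier, which was well above background on the vec arrays only and so entered the fit through the clone where it was high. The membrane and peroxisome partners had 8 of 10 tested, with 0 higher and 1 lower (APOE), and the translation partners of ABCE1 and ABCF1 to ABCF3 had 13 of 13 tested, also with 0 higher and 1 lower (HBS1L). The 3 ABC family genes under other symbols had 2 tested, with 0 at that level.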

How the data were processed

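The authors hybridized Cy3 labeled RNA of HCT116 derived clones to Agilent arrays and deposited the scanner output. The deposited processed signal, an intensity, is linear, detrended and background subtracted, with low signals replaced by surrogate values. The deposited mean and local background intensity are uncorrected, and the deposited flags are another kind of value. The file headers name Feature Extraction 10.7.3.1, the submitters' processing notes 9.1.

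The log2 processed signal minus the 75th percentile of each array was used. Control spots and non-uniformity outliers (26 to 39 per array) were left out, and spots of a probe were averaged. Probes detected (well above background) in both replicates of either clone (30512 of 50238) were fitted with limma 3.58.1 in R 4.3.3, without a block, with Benjamini-Hochberg adjustment over all of them and a threshold of 0.05. Replicate numbers mark shared RNA collections, and the deviations of arrays with one number correlated at -0.20. On simulated data for this comparison (30512 probes), the fit recovered 1.49% of probes changed by 1 on the log2 scale, 82.1% of those changed by 2 and 97.0% of those changed by 3, so most changes of 2-fold would be missed. With 4 arrays, precision is limited by their number, and p-values measure the spread between arrays of 1 clone each.

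Symbols were updated through the RefSeq gene table of GRCh38.p14. Named genes were all drug efflux pumps, every member called by limma or the 2-fold rule, the 5 highest and 5 lowest tested members, and members whose probes differed in sign with an unadjusted p under 0.05 each. ABCC6, named for its probes, the undetected members and the genes named from other lists were chosen after their values were seen. The members, roles and lists were chosen with earlier results of these data known. Alternatives covered background correction, normalization, detection filters, prior, probe choice, the replicate block and each array left out.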

Additional observations from a re-analysis of the deposited data

How the results depend on the processing

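The call of ABCA1 as the 1 member lower in shpkp3-2 became 0 with no filter on detection, with normexp background correction, with the weaker background flag (adjusted p = 0.0856 by limma) and where all 4 arrays had to be well above background, which leaves ABCA1 untested. By the 2-fold rule it became 0 with normexp and with all 4 arrays required, and a 1.5-fold threshold gave 3 lower and 3 higher. The count called higher by limma was 1 (ABCA12, with vec 2 not well above background) with the replicate block, which gave 503 higher and 338 lower over all probes against 75 and 44 without it, and changed no other call of a member. A crossed pairing as a block gave 64 higher and 40 lower over all probes, and 0 and 1 among the members. With each array left out in turn, 0 to 1 members were called higher by limma and 0 to 1 met the 2-fold rule in that direction, and the limma call without vec 1 was ABCA12 against the undetected vec 2 value alone. The median log2 difference was -0.0057 with median centring and -0.010 to 0.11 with arrays left out.

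Of the values of the named genes under alternatives, several of which refit the same difference, the 5 that turned sign were ABCB1 without vec 2 (-0.16), ABCC1 without vec 1 (0.11) and without shpkp3-2 1 (0.07), ABCC4 as the mean of its tested probes (-0.18) and ABCC10 without vec 1 (-0.040). With each array left out in turn, ABCB1 ranged from -0.16 to 0.58, ABCC1 from -0.36 to 0.11, ABCC10 from -0.040 to 0.32, ABCC4 from 0.011 to 0.53, ABCA5 from 0.31 to 0.85, ABCA12 from 0.53 to 1.60, ABCA3 from -0.77 to -0.26, ABCC8 from -0.72 to -0.14, ABCC5 from 0.11 to 0.24 and ABCC2 from -0.12 to -0.020. The causes were not tested. Signals under 8.41 to 9.74, the lowest that counted as well above background on the arrays, carry no measured level, which limits what can be said of ABCA1 in shpkp3-2 and of the 11 undetected members.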
